A study of Oryza sativa with 9 samples.

Results

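The genes described here are 46 rice loci of the heat shock response: 20 heat shock factors of classes A, B and C, 14 small heat shock proteins (small HSPs), 8 members of the HSP70 family, 3 of the HSP90 family and 1 of the HSP101 type. They were taken by locus number from a table of 34119 genes, and all 46 were found in it. Polyadenylated RNA had been sequenced from 14-day-old rice seedlings after a dehydration treatment, 3 h in 20% PEG8000, a polyethylene glycol that draws water out of roots. The wild type (NIP_PEG) was compared with SDG708-YFP-1 (708OE_PEG), a single line carrying extra SDG708, which encodes a SET-domain protein, fused to yellow fluorescent protein. The sources used here do not name the promoter that drives the fusion. Each genotype had 3 libraries, and the wild-type repeats alone are labelled as sequenced on 2 lanes each, so lane and genotype cannot be told apart. Every plant was under PEG and none is labelled as heated, so the comparison asks how the genotypes differed under dehydration and not how either responded to it or to heat. The labels do not say that repeats were grown separately, so the p-values reflect only how far these libraries spread, and that spread may be technical. Seedlings are mixtures of cells, and fewer cells of a type cannot be told apart from less RNA per cell.

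Heat shock factors (HSFs) are transcription factors that bind heat shock elements in promoters. In plants, class A factors carry activation motifs and switch on chaperone genes, most class B factors lack those motifs and many act as repressors, and class C is a smaller group that also lacks them. The genes they control encode chaperones. Small HSPs bind unfolding proteins and keep them soluble, HSP70 binds and releases exposed hydrophobic stretches using ATP, HSP90 matures client proteins such as kinases and receptors, and HSP101 pulls proteins back out of aggregates. Several of these genes are known to respond to drought and salt as well as to heat.

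Levels are FPKM, fragments corrected for the length of the gene and the size of the library, as the authors deposited them. The lengths that these FPKM values imply are whole gene spans, introns included, so FPKM is lower than per transcript length in intron-rich genes and a level is best compared within a gene. The libraries implied sizes of 17.36 to 24.88 M reads for wild-type and 13.3 to 18.13 M for overexpression libraries. At these sizes a single read on a gene of 1 kb amounts to 0.0402 to 0.0752 FPKM. The locus number expected for SDG708 is not in the table used here, and the neighbouring number LOC_Os04g34976, which no table used here pairs with a name, was at 4.66 to 5.91 FPKM in wild-type and 147 to 154 in overexpression libraries. All 7 genes listed as markers of green shoot were higher in the overexpression line, with a summed FPKM of 6359.5 to 8001 in wild-type and 12187 to 12706 in overexpression libraries. Of 4 root markers 2 could be tested, neither was called, 1 was at 0 in every library, and the sums were 9.0 to 10.4 and 8.30 to 8.91. The part of this difference in the results below was not tested.

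Under PEG, more heat shock factor and chaperone genes were called lower than higher in the overexpression line, and most did not pass the test. Of 40 members that reached 1 FPKM in at least 3 libraries and were tested, 15 fell, 1 rose and 24 did not pass the test (limma on log2(FPKM + 1), Benjamini-Hochberg adjusted p below 0.05 over 18569 genes). The decreases lay between 0.28 and 0.65 on the log2(FPKM + 1) scale, which understates the changes of low genes. By the ratio of mean FPKM no member fell to below 0.603 of the wild type. That ratio was of HSFA2A, a low gene with a log2 fold change of -0.39. The 1 rise was that of HSFA4D, a class A factor. Each class that could be tested held at least 1 fall, while 20.0% of all genes were called lower. The falls were 3 of 12 class A (25.0%), 3 of 4 class B (75.0%) and 1 of 4 class C factors (25.0%). Among chaperones they were 3 of 10 small HSPs (30.0%), 4 of 8 HSP70 loci and 1 of 2 HSP90 loci (50.0% each). In classes this small, class A, class C and the small HSPs were not far from the share of all genes. With only 4 class B factors and 2 HSP90 loci tested, 1 gene moves their shares widely. All 8 HSP70 loci had a mean FPKM of at least 5, and of all genes at that level 31.2% were called lower.

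Many genes of the whole table also differed, and the members' counts have to be read against that. Of all 18569 genes tested, 34.3% were called in either direction, against 40.0% of members, 16 of 40. Lower calls made up 20.0% of all genes and 37.5% of members, and higher calls 14.3% of all genes and 2.5% of members. The median log2 fold change of the members was -0.20 and that of all tested genes -0.04. In 20 of the 40 tested members every overexpression library lay below every wild-type library, which is 50.0% against 30.7% of all tested genes. In 2 tested members, 5.0% against 20.0%, every overexpression library lay above. HSP16.9B and HSP16.9C, which also lay above but were not tested, are not in that count. A fold change below 0, whatever its p, was seen in 28 members, 70.0% against 56.3% of all genes. Members were mostly well expressed, and the background of lower calls rises with level: among genes with a mean FPKM of at least 5, 31.2% were called lower, against 13 of 27 members, 48.1%.

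**Figure D1:**
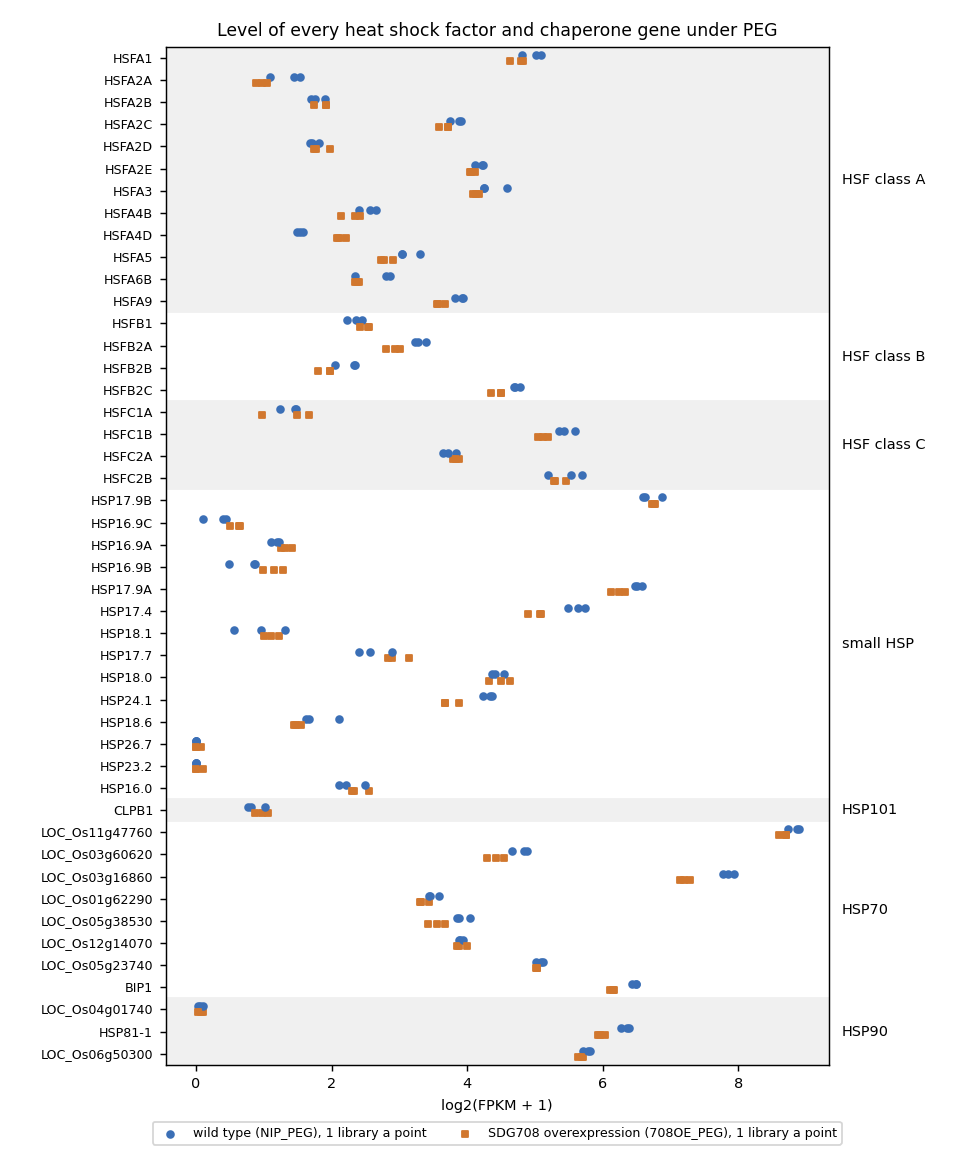
Level of each of the 46 genes as log2(FPKM + 1), with 1 point for each of the 3 wild-type (NIP_PEG) and 3 overexpression (708OE_PEG) libraries and shading by class. In HSFA4D the overexpression points lie to the right of the wild-type points, while in HSP17.4, HSP24.1 and LOC_Os03g16860 they lie clear to the left.

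**Figure D2:**
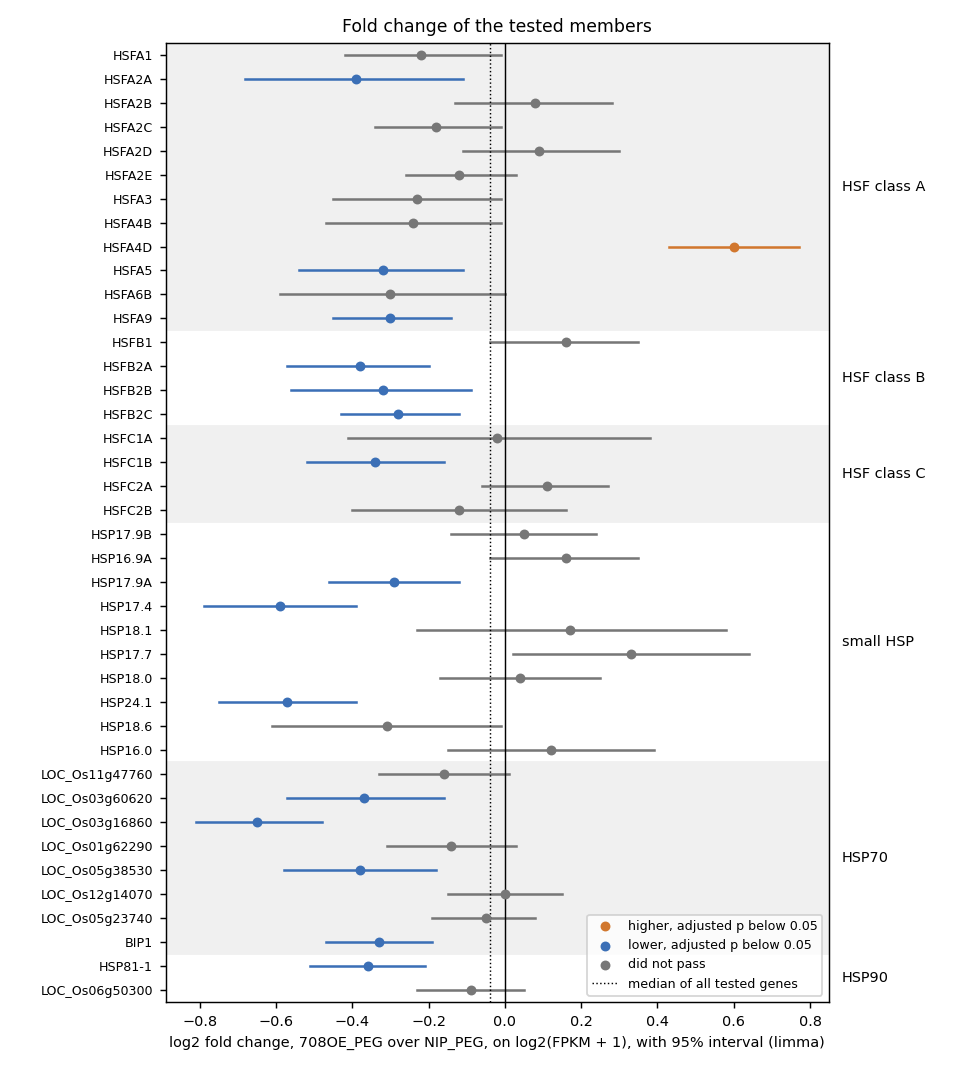
Log2 fold change of the 40 tested genes, overexpression over wild type on the log2(FPKM + 1) scale, with the 95% interval from limma; the dotted line is the median of all tested genes, -0.04. The point for HSFA4D at 0.60 is the 1 called higher, and 15 called lower lie between -0.65 and -0.28.

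The class A factors include the activators of the heat response. HSFA4D (LOC_Os05g45410), also known as SPL7 from a rice mutant with spontaneous leaf spots, was at 1.81, 1.90 and 1.98 FPKM in wild-type replicates 1, 2 and 3 and at 3.64, 3.32 and 3.23 in overexpression replicates 1, 2 and 3. All 3 overexpression libraries lay above all 3 wild-type libraries. The mean rose from 1.90 ± 0.0812 to 3.40 ± 0.217 FPKM (SD, n = 3 each), a ratio of 1.79, and the log2 fold change was 0.60 (SE 0.08, limma's adjusted p = 0.00094). HSFA4B (LOC_Os01g54550), the other class A4 factor of the list, did not pass the test, with 4.85 ± 0.528 and 3.96 ± 0.480 FPKM (SD, n = 3 each; log2 fold change -0.24, limma's adjusted p = 0.099). The log2 ratio of HSFA4D to HSFA4B within a library, a pair picked after its values were seen, was -1.55, -1.38 and -1.11 in wild-type and -0.17, -0.04 and -0.43 in overexpression libraries.

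Among the other class A factors, 3 fell. HSFA9 (LOC_Os03g12370), whose Arabidopsis counterpart acts in maturing seeds, was at 13.1, 14.2 and 14.4 FPKM in the wild type and 11.7, 10.8 and 10.9 in the overexpression line. HSFA5 (LOC_Os02g29340), whose Arabidopsis counterpart dampens the activity of class A4 factors, was at 8.90, 7.24 and 7.25 against 5.64, 5.86 and 6.53. HSFA2A (LOC_Os03g53340), of the A2 group that in Arabidopsis prolongs the heat response, was at 1.13, 1.90 and 1.73 against 1.06, 0.850 and 0.965. In each of these genes the groups did not overlap, but wild-type replicate 1 of HSFA2A lay close to the overexpression libraries. The log2 fold changes were -0.30 (SE 0.07) for HSFA9 (limma's adjusted p = 0.012), -0.32 (SE 0.09) for HSFA5 (limma's adjusted p = 0.03) and -0.39 (SE 0.12) for HSFA2A (limma's adjusted p = 0.041). All 3 calls were lost on leaving out single libraries, and over all alternatives HSFA2A lost its call in 11 of 17, HSFA5 in 9 of 18 and HSFA9 in 4 of 18. Without wild-type replicate 3 limma's adjusted p was 0.053 for HSFA9, 0.051 for HSFA5 and 0.13 for HSFA2A, and without overexpression replicate 2 it was 0.055, 0.093 and 0.12. Leaving out overexpression replicate 3 ended the calls of HSFA9 (0.053) and HSFA2A (0.1), leaving out overexpression replicate 1 those of HSFA5 (0.1) and HSFA2A (0.073), and leaving out wild-type replicate 2 that of HSFA2A (0.1).

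The remaining class A factors did not pass. HSFA1 (LOC_Os03g63750), of the group that in Arabidopsis sets off the heat response, had the highest mean level of its class and was at 31.2, 27.1 and 33.0 FPKM in the wild type and 26.8, 27.4 and 23.9 in the overexpression line. The groups overlapped through wild-type replicate 2 (log2 fold change -0.22, limma's adjusted p = 0.093), and without that library the call was made (-0.29, limma's adjusted p = 0.022). HSFA2C, HSFA2E, HSFA3 and HSFA6B had log2 fold changes from -0.30 to -0.12, and HSFA2B and HSFA2D had values of 0.08 and 0.09. Without wild-type replicate 1, HSFA6B (-0.46, limma's adjusted p = 0.002) and HSFA2C (-0.22, limma's adjusted p = 0.03) were called as well. HSFA6B was at 4.11 FPKM in that library and at 6.27 and 5.98 in the other wild-type libraries, against 4.08 to 4.30 in the overexpression line.

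Of the 4 class B factors, the 3 of the B2 group fell. These are counterparts of Arabidopsis factors that repress heat-inducible genes once the temperature drops. HSFB2A (LOC_Os04g48030) was at 9.47, 8.64 and 8.37 FPKM in the wild type and 5.97, 6.64 and 7.02 in the overexpression line. HSFB2C (LOC_Os09g35790), the member of its class with the highest mean level, was at 24.9, 26.4 and 25.2 against 21.7, 21.6 and 19.5. HSFB2B (LOC_Os08g43334) was at 3.14, 4.11 and 4.01 against 2.93, 2.95 and 2.49. All overexpression libraries lay below all wild-type libraries in each of the 3 genes, by the narrowest margin in HSFB2B. The log2 fold changes were -0.38 (SE 0.08) for HSFB2A (limma's adjusted p = 0.0087), -0.28 (SE 0.07) for HSFB2C (0.015) and -0.32 (SE 0.10) for HSFB2B (0.041).

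The fall of HSFB2A passed under every alternative tried, with log2 fold changes from -0.44 to -0.26. That of HSFB2C was lost without wild-type replicate 3 (limma's adjusted p = 0.051) and without overexpression replicate 3 (0.066). That of HSFB2B was lost in 11 of 17 alternatives, among them leaving out any of 5 libraries, with limma's adjusted p at 0.094 without wild-type replicate 2, 0.13 without wild-type replicate 3, and 0.078, 0.077 and 0.14 without overexpression replicates 1, 2 and 3. The length implied for HSFB2B was 9575 bases against 1599 for the gene of that name in the reference, so its reads may come from more than that gene and its FPKM is uncertain. HSFB1 (LOC_Os09g28354), a class B factor that in tomato acts with class A factors, had means of 4.10 ± 0.411 FPKM for wild-type and 4.68 ± 0.263 for overexpression libraries (SD, n = 3 each), and the groups overlapped. Its log2 fold change of 0.16 did not pass (limma's adjusted p = 0.18), although with a trend on gene length removed it was 0.29 and passed (0.038).

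In class C, HSFC1B (LOC_Os01g53220), known in rice for a part in salt and osmotic stress tolerance, was at 39.8, 47.3 and 42.0 FPKM in the wild type and 33.6, 35.6 and 32.1 in the overexpression line. All overexpression libraries were lower, and the log2 fold change was -0.34 (SE 0.08, limma's adjusted p = 0.014). The call was lost without overexpression replicate 1 (limma's adjusted p = 0.052) or replicate 3 (0.061). HSFC2B (LOC_Os06g35960), with the highest mean level of the class, was at 35.5, 50.7 and 45.2 against 42.9, 38.0 and 38.4. Its wild-type values enclosed those of the overexpression line, and the log2 fold change of -0.12 did not pass (limma's adjusted p = 0.47), but without wild-type replicate 1, the lowest of the 6 libraries, it was -0.26 and passed (0.028). HSFC1A and HSFC2A had log2 fold changes of -0.02 and 0.11 and did not pass.

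Small HSPs ranged widely in level under PEG. The most abundant was HSP17.9B (LOC_Os01g04350), at 116, 98.0 and 95.2 FPKM in wild-type and 108, 107 and 105 in overexpression libraries. Its groups overlapped and its log2 fold change was 0.05 with a 95% interval of -0.14 to 0.24 (limma's adjusted p = 0.65). Next to it in locus number lie HSP16.9C, HSP16.9A and HSP16.9B, which were low: HSP16.9A ranged from 1.15 to 1.68 FPKM over the 6 libraries, HSP16.9B from 0.410 to 1.44 and HSP16.9C from 0.073 to 0.572. In each of these 3 genes every overexpression library lay above every wild-type library in FPKM, as in 20.0% of all tested genes. For HSP16.9C this rested on 1, 7 and 5 reads in wild-type and 6, 6 and 6 in overexpression libraries. Its read counts overlapped, so the separation depended on library size. HSP16.9A had a log2 fold change of 0.16 and did not pass (limma's adjusted p = 0.19), and the other 2 did not reach 1 FPKM in 3 libraries and were not tested, with 37 reads over the wild-type libraries and 47 over the overexpression libraries for HSP16.9B and 13 and 18 for HSP16.9C. Small HSP genes of similar sequence share reads, and the sources used here do not say how the authors' counting assigned such reads, so values of single genes in these clusters are uncertain.

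A second run of small HSP genes, on chromosome 3, held members with fold changes of both signs. HSP17.4 (LOC_Os03g16020) was at 43.7, 52.4 and 48.5 FPKM in the wild type and 33.2, 32.7 and 28.9 in the overexpression line, without overlap. It fell from 48.2 ± 4.33 to 31.6 ± 2.32 FPKM (SD, n = 3 each), a ratio of 0.656, with a log2 fold change of -0.59 (SE 0.09, limma's adjusted p = 0.0019). HSP17.9A (LOC_Os03g15960) was at 89.9, 94.9 and 87.7 against 79.6, 74.2 and 68.7. It fell too, without overlap, by 0.29 on the log2 scale (SE 0.07, limma's adjusted p = 0.018), but not without overexpression replicate 2 (0.065) or replicate 3 (0.073).

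The next loci after HSP17.4 were not called lower. HSP17.7 (LOC_Os03g16040), 2 places on in the list of locus numbers, was at 4.32, 4.94 and 6.45 FPKM in the wild type and 6.11, 6.43 and 7.81 in the overexpression line. Only wild-type replicate 3 overlapped the overexpression libraries. Its log2 fold change did not pass at 0.33 (SE 0.13, limma's adjusted p = 0.092), while without wild-type replicate 3 it was 0.46 and passed (0.033). HSP18.1 (LOC_Os03g16030), between them, was at 0.470, 0.943 and 1.48 against 1.15, 1.35 and 1.01, with overlapping groups and a log2 fold change of 0.17 (limma's adjusted p = 0.47). The log2 ratio of HSP17.4 to HSP17.7 within a library, a pair picked after its values were seen, was 3.34, 3.41 and 2.91 in the wild type and 2.44, 2.35 and 1.89 in the overexpression line. The lengths implied for HSP17.4 and HSP17.7, 465 and 480 bases, were shorter than the 845 and 923 bases of the reference genes, so the FPKM of both is uncertain in scale.

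HSP24.1 (LOC_Os02g52150) was at 19.2, 19.7 and 17.897 FPKM in the wild type and 11.8, 13.8 and 11.7 in the overexpression line. All overexpression libraries were lower, the mean fell from 18.9 ± 0.937 to 12.5 ± 1.17 FPKM (SD, n = 3 each), and the log2 fold change was -0.57 (SE 0.08, limma's adjusted p = 0.0016). The falls of HSP17.4 and HSP24.1 passed under every alternative tried, with log2 fold changes from -0.68 to -0.49 and from -0.64 to -0.46. HSP18.6 had log2 fold change -0.31 (limma's adjusted p = 0.1), and passed without wild-type replicate 2 (-0.40, limma's adjusted p = 0.048). HSP18.0 and HSP16.0 had values of 0.04 and 0.12 and did not pass.

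HSP26.7 (LOC_Os03g14180) and HSP23.2 (LOC_Os04g36750) were not detectable at this depth in any wild-type library. Each had 0 reads in 5 libraries and 1 read in overexpression replicate 2. A count of 0 allows up to 3 reads, which in the 6 libraries amounts to an FPKM of 0.0969 to 0.181 for HSP26.7 and 0.130 to 0.244 for HSP23.2. These limits cover counting error only.

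The HSP70 family carried more FPKM than any other class. LOC_Os11g47760, the most abundant of the 46 genes, was at 424, 467 and 473 FPKM in wild-type and 417, 414 and 388 in overexpression libraries. The groups did not overlap, though wild-type replicate 1 lay close to overexpression replicates 1 and 2, and the log2 fold change of -0.16 did not pass (limma's adjusted p = 0.13). Without wild-type replicate 1 it was -0.21 and passed (0.023). LOC_Os03g16860, the second most abundant, was at 230.4, 218 and 243 against 146, 155 and 139.7. On the log2(FPKM + 1) scale it had the largest fall of the tested members, from 230.5 ± 12.2 to 147 ± 7.57 FPKM (SD, n = 3 each), a ratio of 0.636, with a log2 fold change of -0.65 (SE 0.07, limma's adjusted p = 0.00053). Its value stayed between -0.69 and -0.54 under every alternative tried, and the call was kept in each.

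The summed FPKM of the 8 HSP70 loci was 839.9, 866 and 908 in wild-type and 718, 727 and 681 in overexpression libraries. LOC_Os11g47760 made up 50.5 to 54.0% of it in the wild type and 57.0 to 58.1% in the overexpression line. The log2 ratio of LOC_Os03g16860 to LOC_Os11g47760, a pair also picked after its values were seen, was -0.88, -1.10 and -0.96 in the wild type and -1.52, -1.42 and -1.48 in the overexpression line.

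BIP1 (LOC_Os02g02410) encodes the HSP70 of the endoplasmic reticulum, where it helps secretory proteins fold and restrains the stress sensors of that compartment. It was at 89.1, 84.9 and 89.2 FPKM in the wild type and 70.1, 70.8 and 67.7 in the overexpression line. The 2 groups were tight and did not overlap, and the log2 fold change was -0.33 (SE 0.06, limma's adjusted p = 0.0046), kept under every alternative tried with values from -0.35 to -0.22. LOC_Os05g38530 was at 13.4, 13.7 and 15.5 against 11.7, 10.8 and 9.68, and LOC_Os03g60620 at 27.5, 24.2 and 28.5 against 18.597, 22.4 and 20.5. Both fell without overlap, by 0.38 (SE 0.09, limma's adjusted p = 0.013) and 0.37 (SE 0.09, limma's adjusted p = 0.016) on the log2 scale. Without wild-type replicate 3 neither passed (limma's adjusted p = 0.053 for LOC_Os05g38530 and 0.066 for LOC_Os03g60620), nor without overexpression replicate 3 (0.054 and 0.056), and LOC_Os03g60620 did not pass without overexpression replicate 1 (0.065). LOC_Os12g14070, LOC_Os05g23740 and LOC_Os01g62290 had log2 fold changes of 0.00, -0.05 and -0.14 and did not pass, the first with a 95% interval of -0.15 to 0.15. The reference gives no name for the 7 HSP70 loci other than BIP1, so no compartment is given for them.

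HSP81-1 (LOC_Os08g39140), an HSP90 of the cytosol, was at 76.2, 82.4 and 81.1 FPKM in the wild type and 61.4, 64.8 and 59.8 in the overexpression line. All overexpression libraries were lower, with means of 79.9 ± 3.28 and 62.0 ± 2.56 FPKM (SD, n = 3 each) and a log2 fold change of -0.36 (SE 0.06, limma's adjusted p = 0.0046). The call was kept under every alternative tried, with values from -0.39 to -0.25. LOC_Os06g50300 was at 55.4, 51.5 and 54.3 against 51.1, 50.9 and 48.9, and its log2 fold change of -0.09 did not pass (limma's adjusted p = 0.26). LOC_Os04g01740 had 8 reads over the wild-type libraries and 6 over the overexpression libraries and was not tested. HSP81-2 (LOC_Os09g30412), a further HSP90 gene, was at 78.8, 91.1 and 91.0 in the wild type and 88.7, 88.5 and 82.7 in the overexpression line, with overlapping groups. In a comparison picked after the values were seen, the log2 ratio of HSP81-1 to HSP81-2 was -0.05, -0.15 and -0.17 in the wild type and -0.53, -0.45 and -0.47 in the overexpression line. Of the 4 within-library ratios given here and above, each had an exact two-sided permutation p = 0.1 (adjusted 0.1), the smallest that 3 libraries against 3 allow, so none can pass the threshold. These HSP90 genes are similar in sequence, and reads that match both are subject to the same uncertainty as those of the small HSPs.

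CLPB1 (LOC_Os05g44340) encodes HSP101, the disaggregase that plants need to survive severe heat. It was at 0.698, 0.753 and 1.03 FPKM in the wild type and 1.08, 0.972 and 0.835 in the overexpression line, and the groups overlapped. With an FPKM of at least 1 in fewer than 3 libraries it was not tested. It had 187 reads over the wild-type libraries and 155 over the overexpression libraries.

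**Figure D3:**
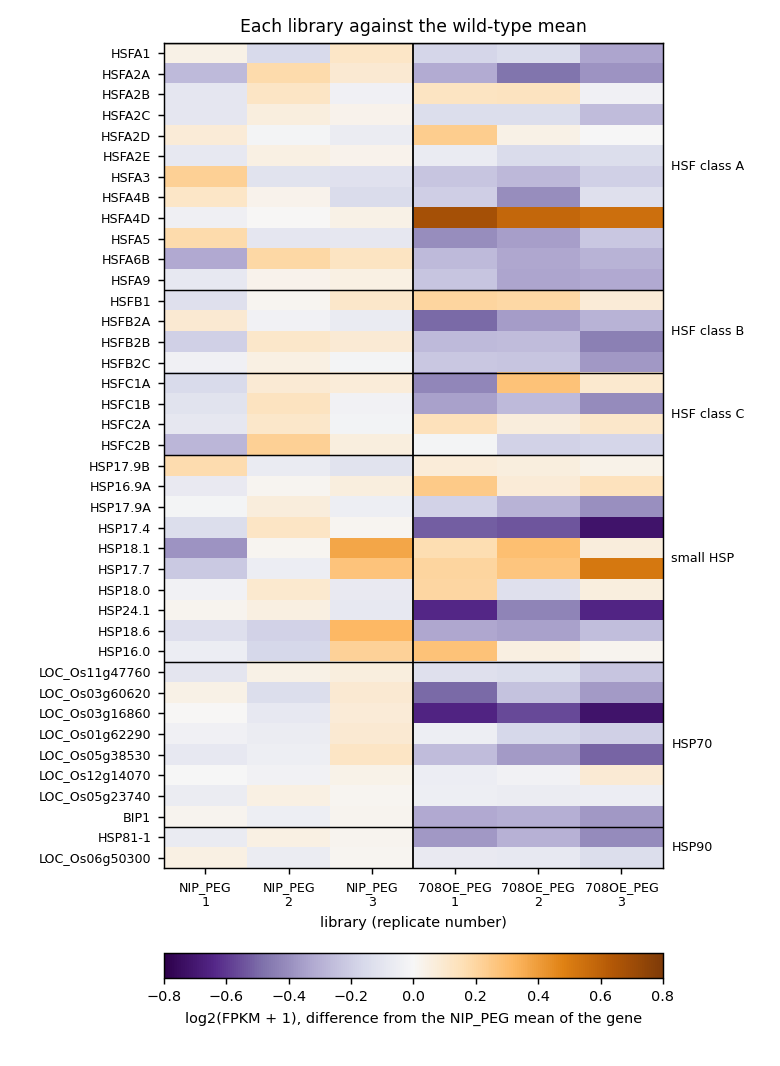
Difference of each library from the wild-type mean of the gene, in log2(FPKM + 1), for the 40 tested genes (rows) in the 3 wild-type and 3 overexpression libraries (columns). Orange is above and purple below the wild-type mean; HSFA4D is orange in all 3 overexpression libraries, and LOC_Os03g16860, HSP17.4 and HSP24.1 are dark purple in all 3.

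Single libraries weighed on the members unevenly. Wild-type replicate 1 was the lowest of the 3 wild-type libraries in 22 of 40 tested members, 55.0% against 39.3% of all tested genes. Overexpression replicate 3 was the lowest of its group in 22 members, 55.0% against 39.2% of all tested genes. Members called higher numbered 1 without wild-type replicate 1 or 2, where 14.2% and 16.6% of all genes were called higher, and 2 without wild-type replicate 3 (9.85% of all genes). They numbered 1 without each overexpression replicate in turn, where the shares of all genes were 9.86%, 9.94% and 9.41%. Leaving out wild-type replicate 1 or overexpression replicate 3 moved the count of members called lower in opposite directions, to 19 without wild-type replicate 1 and to 7 without overexpression replicate 3. Without wild-type replicate 3 the count was 8, and without overexpression replicate 1 or replicate 2 it was 10 in each case. Without wild-type replicate 2 it was 15. The share of all genes called lower moved as well, to 20.7%, 22.1% and 11.9% without wild-type replicates 1, 2 and 3 and to 11.8%, 12.0% and 10.6% without overexpression replicates 1, 2 and 3.

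The balance of directions also depended on how libraries were scaled. Reads in the table summed to 1.05 to 1.07 times the library size implied by FPKM in the wild type and to 0.972 to 0.997 times in the overexpression line. When each library was scaled to its own reads in the table, the median of all tested genes moved from -0.04 to 0.04, and 3682 genes (19.8%) were called higher and 2079 lower, so higher calls went from 41.7% to 63.9% of all calls. On that scale 1 member was called higher and 7 lower, 17.5% of members against 11.2% of all genes, and the members' median log2 fold change was -0.09. The 7 were HSFB2A, HSP17.4, HSP24.1, LOC_Os03g16860, LOC_Os05g38530, BIP1 and HSP81-1. The falls of HSFA2A, HSFA5, HSFA9, HSFB2B, HSFB2C, HSFC1B, HSP17.9A and LOC_Os03g60620 kept their direction and did not pass, with adjusted p-values in limma from 0.05, just over the threshold, to 0.11. HSFA4D was called higher on both scales.

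**Figure D4:**
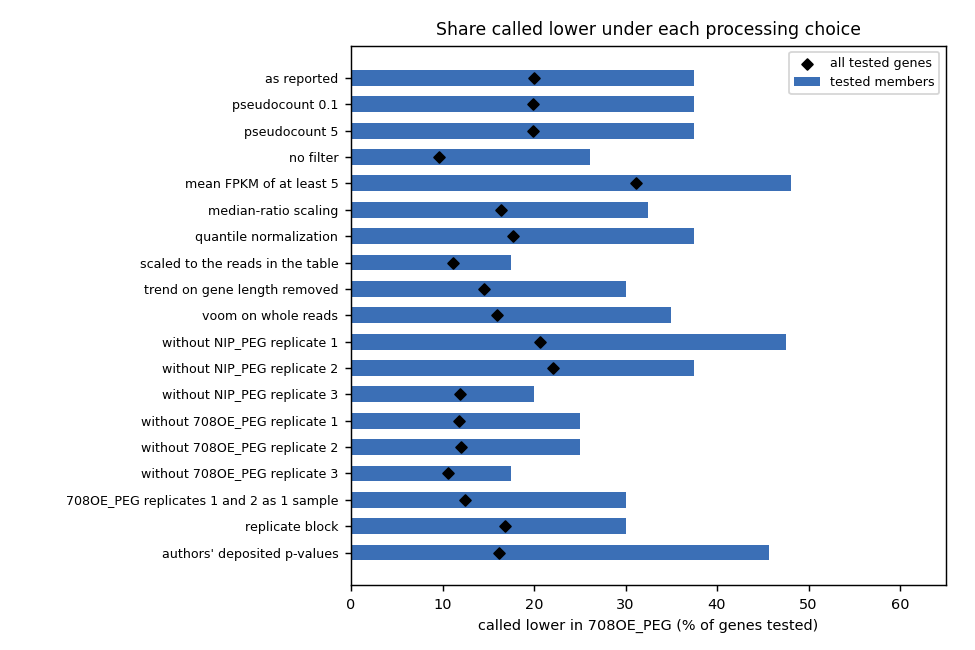
Share of tested members called lower in the overexpression line (bars, % of members tested) and share of all tested genes called lower (diamonds, %), under the settings as reported and each alternative. The members' share ranges from 17.5% to 48.1% and is above the diamond in every setting shown.

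With a pseudocount of 0.1 or of 5 the members' counts were as reported, and 19.9% of all genes were called lower in each case. Without a filter on low values 1 of 46 members was higher and 12 were lower, against 7.93% and 9.65% of all genes.

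Of the 16 called members, 7 kept their call under every alternative that could be applied to them: HSFA4D, HSFB2A, HSP17.4, HSP24.1, LOC_Os03g16860, BIP1 and HSP81-1. In the fit over all 6 libraries limma called no tested chaperone higher, and at an unadjusted p under 0.05 there was 1, HSP17.7, which was called without wild-type replicate 3 (0.46, limma's adjusted p = 0.033). With limma's voom method on recovered whole reads there was none. The p-values of the authors' deposited table, adjusted here over all genes with a read, called 1 of 46 members higher, against 12.7% of all genes. That member was again HSFA4D. Those p-values called 21 members lower, 45.7% of the 46 against 16.2% of all genes. In the authors' deposited table HSFA4D had a log2 fold change of 0.84, HSFA2A of -0.75, LOC_Os03g16860 of -0.65, HSP17.4 of -0.62 and HSP24.1 of -0.61. That table also had HSFA1, HSFA2C, HSFA3, HSFA4B, HSFA6B and LOC_Os11g47760 as lower, which limma did not call.

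Other genes of protein folding were looked at in 8 further lists of 68 locus numbers, of which 65 were in the table and 44 could be tested. Of these 3 rose and 18 fell, 6.82% and 40.9% against 14.3% and 20.0% of all genes, and their median log2 fold change was -0.20. At a mean FPKM of at least 5, 34 of the listed genes were tested. Of those 4 were higher and 15 lower, against 15.9% and 31.2% of all genes at that level. Lower calls were 11 of 44 without wild-type replicate 3 (11.9% of all genes) or without overexpression replicate 3 (10.6%). They were 12 without overexpression replicate 2 (12.0%) and 11 with each library scaled to its own reads in the table (11.2%). Higher calls were 1 without wild-type replicate 3, overexpression replicate 1 or overexpression replicate 3, against 9.85%, 9.86% and 9.41% of all genes. They were 2 without wild-type replicate 1 (14.2% of all genes). The Clp ATPases, ring-shaped unfoldases of plastids and mitochondria, had 4 of 6 lower. Of these, CLPB-C (LOC_Os03g31300) lost its call without wild-type replicate 3 (limma's adjusted p = 0.1). It also lost it without overexpression replicate 1, 2 or 3 (0.1, 0.072 and 0.091) and with each library scaled to its own reads in the table (0.1). CLPD1 (LOC_Os02g32520), whose Arabidopsis counterpart ERD1 is a dehydration-induced plastid gene, was at 337, 308 and 323 FPKM in wild-type and 189, 192 and 175 in overexpression libraries. Its groups lay far apart, with a log2 fold change of -0.80 (SE 0.07, limma's adjusted p = 0.00019). On the log2(FPKM + 1) scale this was a larger fall than that of any tested member. CLPC1 (LOC_Os04g32560) and CLPC2 (LOC_Os12g12850), the Clp chaperones of the plastid stroma, both fell by 0.30 on the log2 scale (limma's adjusted p = 0.0082 and 0.01), the latter not without wild-type replicate 3 (0.05, just over the threshold).

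Of 9 genes of folding and stress in the endoplasmic reticulum, 2 were higher and 4 lower, against 14.3% and 20.0% of all genes. Higher calls were 0 without wild-type replicate 3, overexpression replicate 1 or overexpression replicate 3, against 9.85%, 9.86% and 9.41% of all genes. There was 1 without wild-type replicate 1 (14.2% of all genes). Lower calls were 1 without wild-type replicate 3 (11.9% of all genes) and without overexpression replicate 2 (12.0%) or 3 (10.6%). They were 2 without overexpression replicate 1 (11.8%), and 4 and 3 without wild-type replicates 1 and 2 (20.7% and 22.1%). With a trend on gene length removed 2 were lower (14.5% of all genes). There was 1 lower call (11.2% of all genes) when each library was scaled to its own reads in the table. In the settings with 1 of 9 lower, the list was close to the share of all genes. IRE1 (LOC_Os07g28820), the sensor that splices the BZIP50 messenger RNA in stressed rice cells, was at 24.2, 22.32 and 24.9 FPKM in the wild type and 17.2, 19.3 and 18.2 in the overexpression line. It fell by 0.37 on the log2 scale (SE 0.07, limma's adjusted p = 0.0066). BZIP50 (LOC_Os06g41770) itself was at 6.89, 7.95 and 7.58 against 11.2, 8.76 and 9.22. It rose without overlap, with a log2 fold change of 0.34 (SE 0.10, limma's adjusted p = 0.031), but not without wild-type replicate 1 (0.057) or 3 (0.079) or without overexpression replicate 1 (0.095) or 3 (0.066). FPKM of a gene span does not separate spliced from unspliced BZIP50.

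The other lists are given by locus number, since the reference did not pair their called members with names. Their counts stand beside 20.0% of all genes called lower and 14.3% called higher, so 1 of 5 lower is no more than that share. Of 9 tested HSP70 and HSP110 loci outside the 46, 4 were lower, led by LOC_Os09g31486 with 17.71 ± 0.779 against 10.3 ± 0.707 FPKM (SD, n = 3 each; log2 fold change -0.73, limma's adjusted p = 0.00031) and LOC_Os01g08560 with 35.1 ± 4.43 against 21.1 ± 0.113 (-0.70, limma's adjusted p = 0.0011). Of 7 tested co-factors of the HSP40 and HOP type 4 were lower, led by LOC_Os02g43020 (-0.59, limma's adjusted p = 0.0008) and LOC_Os03g57340 (-0.51, limma's adjusted p = 0.003). Among 5 tested chaperonins LOC_Os12g17910 rose (0.42, limma's adjusted p = 0.0041) and LOC_Os02g01280 fell (-0.55, limma's adjusted p = 0.008). Of 5 tested further HSP90 loci 1 was lower, LOC_Os12g32986 (-0.32, limma's adjusted p = 0.0083). None of 3 tested further small HSPs passed, and HSP18.8 (LOC_Os07g33350) came closest with 5.74 ± 0.337 against 8.25 ± 2.19 FPKM (SD, n = 3 each; 0.43, limma's adjusted p = 0.051). None of the 5 further heat shock factor loci reached 1 FPKM in 3 libraries, so none was tested.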

How the data were processed

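Per the labels' protocols, TRIzol RNA was poly(A)-selected and a stranded KAPA kit was used. The authors deposited FPKM for 6 libraries, 1 column each, from 9 samples, along with log2 fold changes and p-values of their own, per the file headers. Tools named in the submitters' processing notes, with no version, are HISAT2, featureCounts, DESeq2, FastQC, cutadapt, SAMtools and deepTools. The sources used here do not give the genome build, the annotation, the strand setting or whether the authors' p-values were adjusted. The wild-type columns name the group and a repeat, with a digit whose meaning is not given, and were taken as wild-type replicates by group.

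The members and the further lists were chosen with earlier results of these data known. Names were recalled by locus number and checked by chromosome and gene length against the RefSeq gene table of assembly ASM3414082v1. For 37 of the 46 members a gene of the name lay on the same chromosome, 34 of them with a length within 1.5-fold, and the other 9 members are given by locus. No coordinates or sequences are printed.

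The comparison was fitted with limma 3.58.1 under R 4.3.3, on log2(FPKM + 1) with a variance trend, over the 18569 genes that reached 1 FPKM in 3 or more libraries. Tests were two-sided and p-values were adjusted by Benjamini-Hochberg, with a threshold of 0.05. Fold changes on this scale understate those of low genes. FPKM steps gave whole reads for 31255 of 31263 genes with reads (99.97%, tolerance 0.02 of a read), and with them library sizes and gene lengths. The scripts were tested on simulated data, in which the share of false calls by limma was above the nominal level of the threshold, so calls close to it are less certain. Genes given in full are members past the threshold with a log2 fold change of at least 0.5 in size and the most abundant member of each class, and in each further list at most 3 called genes with the largest change. The other genes named were chosen after their values were seen.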

Additional observations from a re-analysis of the deposited data

How the results depend on the processing

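Over 20 members, those called and the most abundant tested one of each class, 357 recomputed values were compared with those reported: 300 kept direction and side of the threshold, 50 lost the call, 5 gained one and 2 changed sign. Both sign changes were in HSP17.9B, from 0.05 to -0.04 with a trend on gene length removed and to -0.00 without wild-type replicate 3, with a range of -0.00 to 0.14 on leaving out 1 library, and it passed in neither. The number of genes called, 6360, ranged from 3708 to 7176 on leaving out 1 library and was 4226 with overexpression replicates 1 and 2, the closest pair, as 1 sample. Members called higher ranged from 1 to 2 and members called lower from 7 to 19 on leaving out 1 library. Members called higher were 0 among genes with a mean FPKM of at least 5, where HSFA4D is not tested, and 2 with a trend on gene length removed. Members called lower were 7 with each library scaled to its own reads in the table. Pseudocounts of 0.1 and 5, quantile normalization, median-ratio scaling, voom and no filter left the member counts within 1.5 times those reported. Repeats with the same number did not deviate together (correlations -0.005, -0.002 and -0.045). With 3 libraries a group this cannot show whether the numbers mark shared handling, and the labels do not say. With a replicate block 2 members, HSFA4D and HSP17.7 (0.33, limma's adjusted p = 0.023), were higher and 12 lower, against 13.4% and 16.8% of all genes. The planned count models were not run, and voom on the recovered reads was the count-based alternative. The filter of 1 FPKM in 3 libraries left 6 members untested; of these HSP26.7 and HSP23.2, with 1 read each in all, are limited by depth.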
